A study of Punica granatum with 4 samples.

Results

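The comparison concerned leaves of drought-stressed pomegranate (Punica granatum) sprayed with the plant hormone abscisic acid (ABA) at 90 µM, set against leaves sprayed at 60 µM. It holds 1 RNA sequencing library per dose, 2 of the 4 libraries of the study, whose other libraries were sprayed with water (0 µM) and 30 µM ABA. All plants were of the strain labelled Hongmanao, genotype wt, aged 180 days. They had been raised from cuttings rooted with the auxin IBA, grown for 90 days, dried to 30% to 35% of the soil's field water capacity, and given 5 mL of spray daily. Drought was therefore common to both doses, and the libraries differ in the label for ABA alone. How many plants went into each library is not stated in the labels. Genes were included when they had at least 1 CPM (reads per 1000000 counted reads of the library) at 60 or at 90 µM. This rule kept 18871 of the 27893 features counted, and of the features left out 3923 had at least 1 read. The kept gene nearest the limit reached 1.02 CPM in its higher library, and the nearest gene left out reached 0.987 CPM.

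ABA builds up in drying plants. In other plants, such as Arabidopsis, it binds soluble receptors that then inhibit protein phosphatases, which frees kinases that act on ion channels of the stomatal guard cells and on transcription factors. Stomata close within minutes, and genes for protective proteins and sugar metabolism respond over hours. Nothing in the sources used here pairs the pomegranate identifiers with protein names, so genes are given below by identifier and feature class, and the leaf label could not be checked against marker genes.

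The libraries held 28366719 counts at 60 µM and 26590290 at 90 µM, so that 1 CPM stood for 28.4 and 26.6 reads. They were scaled with edgeR's TMM factors, 1.04 for 60 µM and 0.960 for 90 µM. These factors assume that most genes do not differ, and they move the ratio of every gene by 0.12 on the log2 scale relative to scaling by library totals. The prior count makes that shift smaller in the fitted folds of genes with few reads in a library (median log2 fold of all genes -0.01 with TMM and -0.12 with totals). Each ratio carries an exact 95% interval for counting error. The spread between plants of the same dose cannot be measured from 1 library each, so no test of dose was possible, and no interval below covers more than the counting of reads. PCR copies are not independent molecules, so even counting error is understated. In bulk leaf RNA, fewer cells of a type and less RNA per cell cannot be told apart.

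Most genes lay close together at the 2 doses. The median absolute log2 fold was 0.30, and 72.1% of genes had a fitted fold below 1.5 in either direction. For 14652 genes, 77.6% of those kept, the whole counting interval lay between 0.5 and 2. Intervals lay wholly above 2 for 658 genes, which are called higher at 90 µM (3.49% of those kept), and wholly below 0.5 for 779 genes, which are called lower (4.13%). Together these were 7.61% of the genes. The remaining 2782 genes, 14.7%, had intervals that crossed 0.5 or 2, so this depth did not place them on either side. Scaled by library totals, the split was 497 higher (2.63%) and 936 lower (4.96%). With a bound of 4-fold in place of 2-fold it was 125 higher (0.662%) and 189 lower (1%).

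**Figure D1:**
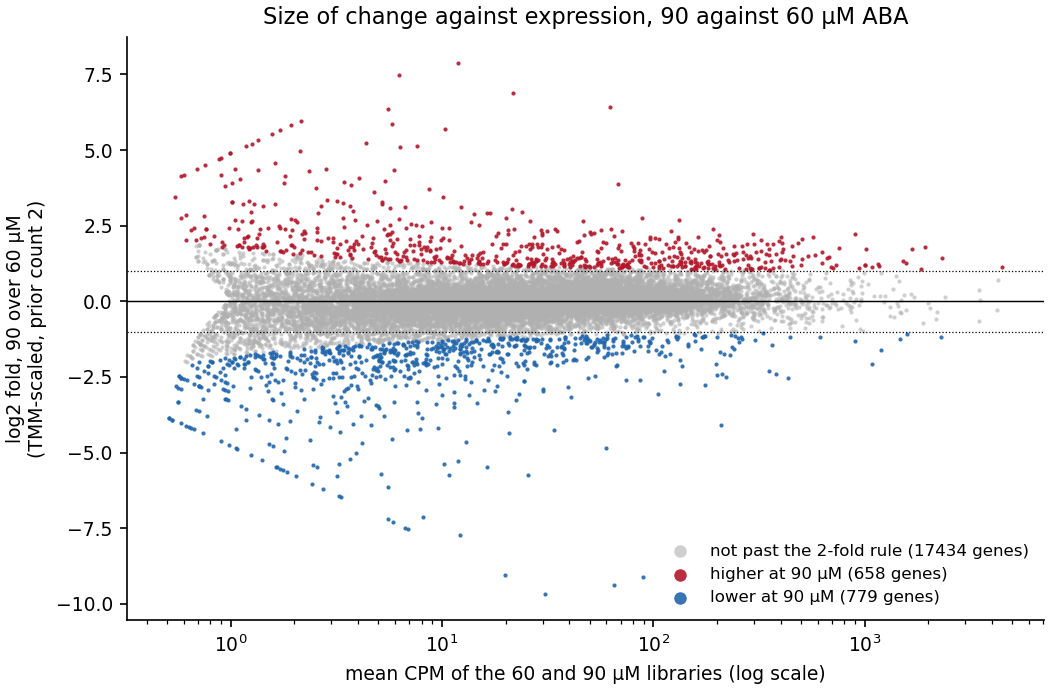
Log2 fold of 90 over 60 µM (vertical axis, TMM-scaled, prior count 2) against the mean CPM of both libraries (horizontal log axis), with 1 point per gene. Red and blue points are the 658 higher and 779 lower genes, and dotted lines mark 2-fold. The straight rows of points at the left are genes with 0 or few reads in 1 library.

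The size of the differences depended on expression level. From 3 CPM upward the median absolute fold exceeded the reach of the counting interval. Under 1 CPM it did so as well, 1.28 against 1.03, in a level set apart by the filter. The reach is that of a 95% interval, so counting error alone would give a median below the reach, also at 1 to 3 CPM. At 1 to 3 CPM the median absolute log2 fold was 0.62 over 1902 genes, while the counting interval of a typical gene reached 0.63 to each side. At 3 to 10 CPM the values were 0.42 and 0.33 over 3466 genes. At 10 to 30 CPM they were 0.28 and 0.19 over 5170 genes. The 5643 genes at 30 to 100 CPM had the smallest median absolute log2 fold of the 8 levels, 0.22, against a counting reach of 0.11. Above them the folds grew again while counting error kept shrinking. The 1904 genes at 100 to 300 CPM had a median absolute log2 fold of 0.25 and a reach of 0.06, and the 366 genes at 300 to 1000 CPM had 0.36 and 0.04. For the 50 genes at 1000 CPM and over the values were 0.58 and 0.02.

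Counting intervals that left out a ratio of 1 became more frequent in the same order. They made up 67.7% of all genes, 52.8% at 1 to 3 CPM, 72.7% at 30 to 100 CPM and 100% of the genes at 1000 CPM and over. Such an interval shows that 2 libraries differ, not that 2 doses do. The number of genes that the depth could not place against 2-fold fell from 1064 of 1902 at 1 to 3 CPM (55.9%) to 193 of 5643 at 30 to 100 CPM (3.42%). None of the 50 most expressed genes was left unplaced. The 370 genes with a mean under 1 CPM stand apart by construction, because a gene with such a mean was kept only if its libraries lay on either side of 1 CPM.

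**Figure D2:**
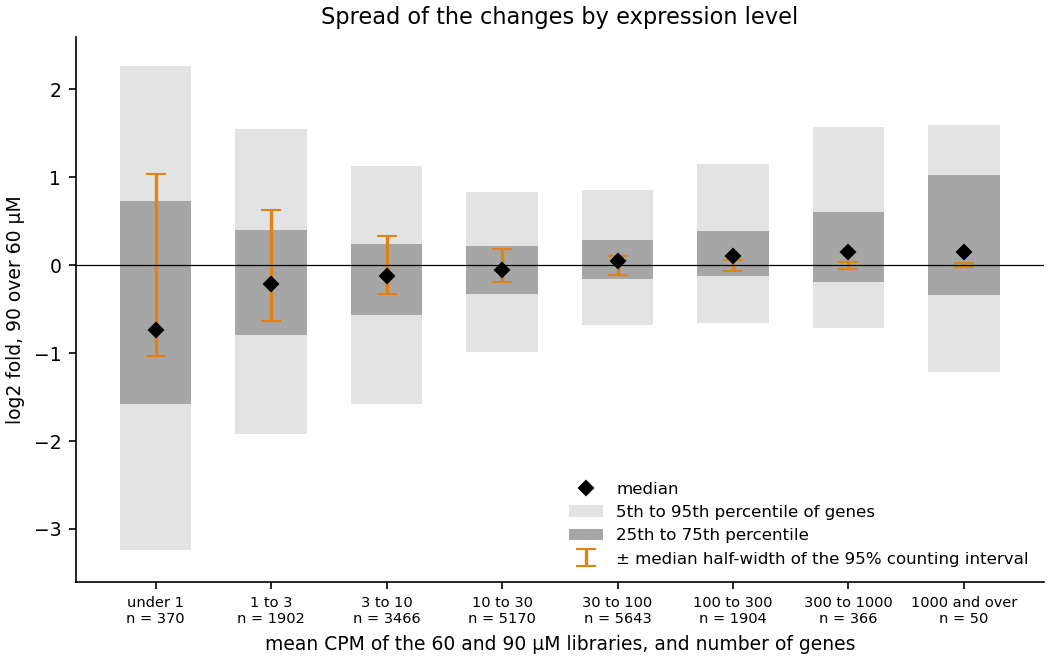
Log2 fold of 90 over 60 µM by level of mean CPM, with the number of genes under each level. Grey bars span the 5th to 95th and the 25th to 75th percentile of genes, diamonds are medians, and orange bars show how far the 95% counting interval of a typical gene reaches from 0. The grey bars are narrowest at 30 to 100 CPM and widest under 1 CPM. They widen again from 100 CPM upward, and at 1000 CPM and over the inner bar is wider than at 1 to 3 CPM. The orange bars shrink throughout.

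The direction of the differences also changed with expression level. Weakly expressed genes were more often lower at 90 µM and strongly expressed genes more often higher. At 1 to 10 CPM, 210 genes were called higher and 367 lower, 3.91% and 6.84% of 5368. At 10 to 100 CPM the numbers were 243 and 287 of 10813. At 100 CPM and over they were 177 and 59 of 2320, or 7.63% and 2.54%. The balance tipped furthest at 300 to 1000 CPM, with 49 genes higher and 9 lower of 366. The median log2 fold went from -0.15 at 1 to 10 CPM to 0.11 at 100 CPM and over, a difference of 0.26 that was also 0.26 with totals, since scaling moves the ratios of all genes alike. The zero point does move. By library totals the medians were -0.26 and -0.01, so the median of the strongly expressed genes changes sign with the scaling, while more of them were still called higher (135) than lower (74). The excess did not extend to larger folds. Past 4-fold, 12 genes at 100 CPM and over were higher and 13 lower.

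The shares of reads followed the same course at most levels. Genes at 3 to 10 CPM took 2.33% of the 60 µM library and 1.95% of the 90 µM library. Those at 10 to 30 CPM took 10.2% and 9.13%, and those at 300 to 1000 CPM took 16.7% and 17.9%. At 30 to 100 CPM the share fell from 31.6% to 30.7%, although 127 genes were called higher and 119 lower. The exact 95% binomial intervals of each pair do not overlap. At 60 µM the 1788 most abundant genes held 50% of all reads, and at 90 µM 1594 genes did. The water library needed 1892 genes and the 30 µM library 1796, so the 90 µM library was the most concentrated of the 4. The medians of another pair of libraries ran in the same direction, and the calls did so in part. Between the 30 µM and water libraries, which enter neither side of the comparison, the median log2 fold was -0.08 at 1 to 3 CPM and 0.12 at 300 to 1000 CPM, against -0.22 and 0.15 between 90 and 60 µM. For 30 µM against water, 61 genes were called higher and 99 lower at 1 to 3 CPM, and 90 and 91 at 3 to 10 CPM. The calls were 60 and 77 at 10 to 30 CPM, and 55 and 35 at 30 to 100 CPM. Higher up they were 13 and 25 at 100 to 300 CPM, 8 and 5 at 300 to 1000 CPM, and 2 and 2 at 1000 CPM and over. Over all genes of that pair 1.64% were higher and 2.01% lower. The difference between the pairs was not tested, with 1 library per dose.

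**Figure D3:**
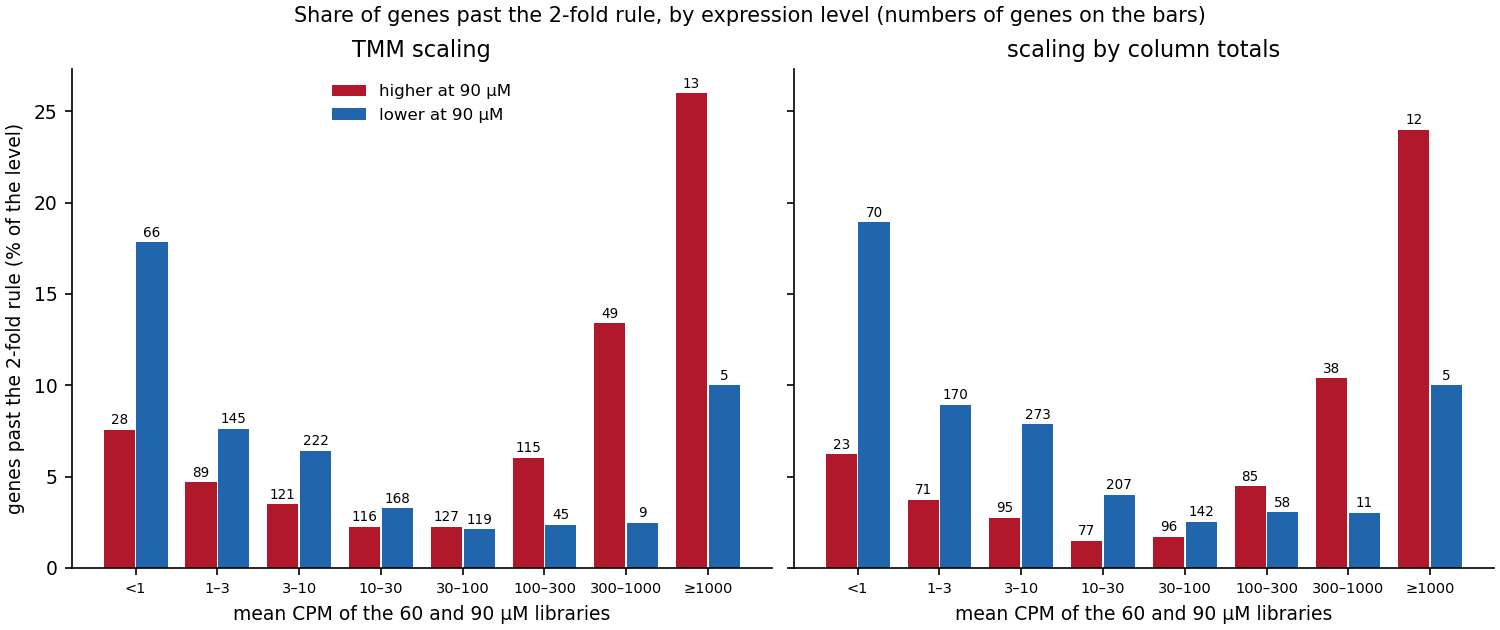
Share of genes whose counting interval lies wholly past 2-fold at each level of mean CPM, in percent of the level, with numbers of genes on the bars. Red is higher and blue lower at 90 µM, with TMM scaling on the left and scaling by library totals on the right. Lower genes outnumber higher ones below 30 CPM and higher genes outnumber lower ones from 100 CPM upward in both panels.

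Of the 50 genes at 1000 CPM and over, 13 were higher and 5 lower at 90 µM, all protein-coding. The higher ones lay 2.09 to 3.49-fold above 60 µM and the lower ones 2.10 to 4.25-fold below. LOC116195536 had the largest fold among the higher ones. It had 28441 counts with water, 39002 at 30 µM, 25869 at 60 µM and 77975 at 90 µM, a 90 to 60 µM ratio of 3.49 (interval 3.44 to 3.54). The 90 µM library stood above the other 3. LOC116192357 had 14491, 19192, 14060 and 40662 counts at the rising doses, a ratio of 3.34 (3.28 to 3.41). LOC116205258 had 19790, 36633, 23300 and 66944 counts and a ratio of 3.32 (3.27 to 3.37). Both were also highest at 90 µM, with 30 µM next.

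Among the lower genes at this level, the 3 furthest past the bound were highest of the 4 libraries at 60 µM. LOC116188420 had 19941, 14355, 50345 and 10243 counts at 0, 30, 60 and 90 µM and was 4.25-fold lower at 90 µM than at the smaller dose (4.16 to 4.34). Its 90 µM value was the lowest of all. LOC116197583 had 3366, 1935, 51833 and 14814 counts and was 3.03-fold lower (2.97 to 3.08). Its 90 µM value was still above both the water and the 30 µM values. LOC116203545, with 17328, 22651, 60214 and 21983 counts, was 2.37-fold lower (2.33 to 2.41), and only its 60 µM library stood apart.

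By CPM gained or lost, the largest movements were in genes that were abundant at every dose. LOC116204098, which had the highest mean CPM of the comparison, went from 2836 to 6234 scaled CPM, a ratio of 2.20 (2.18 to 2.22). Without scaling, its 90 µM level of 5987 CPM was close to the 6149 CPM of the water library. The 60 µM library, with 2953 CPM, was below the 3978 CPM at 30 µM. With TMM over all 4 libraries, both its 60 and its 90 µM value lay outside the range of the water and 30 µM values. LOC116204462 had 37670 counts at 60 µM and 88095 at 90 µM, a ratio of 2.70 (2.67 to 2.74), with 54475 in the water library and 74530 at 30 µM. LOC116205967 lost the most, from 3147 to 1385 scaled CPM, 2.27-fold lower (2.24 to 2.30), and had 62856 and 46629 counts at 0 and 30 µM. Its 90 µM value was the lowest of the 4.

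The other 4 of the 5 most abundant genes did not pass the 2-fold rule, although the counting interval of each spanned under 2% of its ratio. LOC116215619 had a ratio of 1.65 (1.63 to 1.66) and LOC116208007 one of 0.631 (0.626 to 0.637). LOC116198126 had 135698 counts at 60 µM and 96503 at 90 µM, a ratio of 0.823 (0.816 to 0.829). LOC116199965 had 101525 and 91172 counts and a ratio of 1.04 (1.03 to 1.05). Scaled by library totals its log2 fold was -0.06 in place of 0.05, so no direction can be given for it.

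Between 100 and 1000 CPM the largest folds were larger downward than upward. LOC116214897 had 7758, 421, 11245 and 565 counts at 0, 30, 60 and 90 µM, 17.2-fold lower at 90 than at 60 µM (15.8 to 18.8). It was high in the water and 60 µM libraries and low in the others. LOC116204443, with 3981, 1054, 8768 and 1126 counts, was 6.73-fold lower (6.33 to 7.17) and had the same order of high and low libraries. LOC116213226 had 1004, 893, 5370 and 554 counts and was 8.38-fold lower (7.68 to 9.16), with the 60 µM library alone high. Upward, LOC116195933 had 1167, 2317, 1071 and 6005 counts, a ratio of 6.48 (6.08 to 6.93), and was highest at 90 µM. LOC116194624 had 4487, 5000, 1864 and 8414 counts and a ratio of 5.22 (4.96 to 5.49). Its 60 µM value was below, and its 90 µM value above, those of both other libraries. LOC116193463 had 1369, 5660, 1223 and 5271 counts, a ratio of 4.98 (4.68 to 5.31), and was high at 30 and 90 µM.

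Below 100 CPM, the genes furthest apart were near absence in 1 of the libraries. LOC116190357 had 42 counts at 60 µM and 3267 at 90 µM, a ratio of 90.0 (66.4 to 125), and was also abundant at 0 and 30 µM (5307 and 8383 counts). The 60 µM library was thus the exception. LOC116190360 was also lowest at 60 µM, with 156, 355, 2 and 293 counts and a ratio of 169 (46.5 to 1406). LOC116195944 had 20, 1782, 9 and 1142 counts, 147-fold higher at 90 µM (77.0 to 322). LOC116213047 had 2, 582, 1 and 633 counts and a ratio of 732 (131 to 28962). These last 2 genes were high at 30 and 90 µM.

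Genes without any read at 60 µM numbered 16 among those kept, and genes without any at 90 µM numbered 32. All 48 were called, since the filter asked for 1 CPM in the other library. Against a floor of 3 counts in the empty library, a bound that takes the other count as exact, LOC116210303 was at least 127-fold higher at 90 µM (332 counts, exact interval from 104) and had 0 and 245 counts at 0 and 30 µM. LOC116195203 had 114 counts at 90 µM and 0 in each of the other 3 libraries, at least 43-fold higher than at 60 µM (exact interval from 35.2). LOC116210933 was at least 501-fold lower by the floor (1740 counts at 60 µM, exact interval from 407) and LOC116189976 at least 326-fold lower (1133 counts, exact interval from 265). Both also had reads with water (1452 and 673 counts) and 0 at 30 µM.

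The same order of high and low libraries held in further genes. LOC116215005, LOC116196374 and LOC116196892 had 392, 381 and 334 counts at 60 µM, 0 at 90 µM, and at most 1 at 30 µM. By the floor they were at least 112, 109 and 96-fold lower, with exact intervals from 91.4, 88.9 and 77.9. LOC116209956 kept 3 counts at 90 µM of 3683 at 60 µM, 1061-fold lower (363 to 5149), and LOC116213234 kept 6 of 5075, 731-fold lower (336 to 1994). Their 30 µM counts were 6 and 10, and their counts with water were 2050 and 2527.

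**Figure D4:**
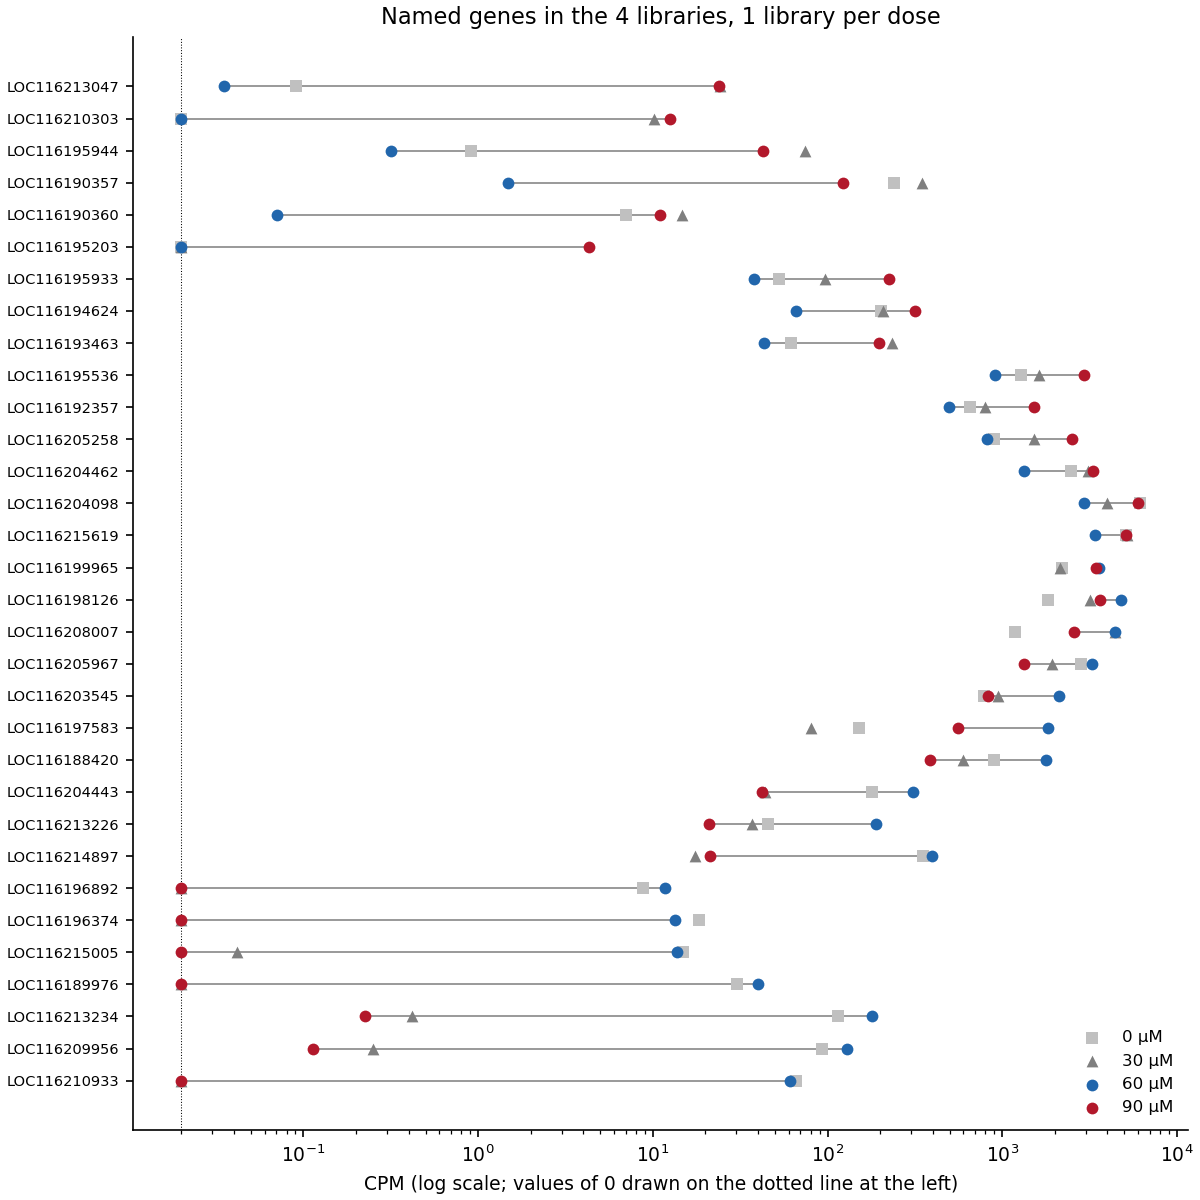
CPM (log axis) of the 32 genes chosen by size of change, abundance or absence, in each of the 4 libraries. Lines join the 60 µM (blue) and 90 µM (red) values, grey squares are 0 µM and grey triangles 30 µM, symbols can overlap, and values of 0 lie on the dotted line. The blue and red points lie furthest apart in weakly expressed genes, and in most of those the 30 µM value lies near the 90 µM value.

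The water and 30 µM libraries helped to place the called genes. Among the 658 higher genes, 319 (48.5%) had their 60 µM value below and their 90 µM value above both of those libraries. Of all kept genes, 19.3% had the 2 values on opposite sides. That share counts both orders, with either library above, and the share of each order was not computed. The 60 µM library alone fell outside their range in 141 genes (21.4%), and the 90 µM library alone in 79 (12.0%), against 15.6% and 16.0% of all kept genes. Among the 779 lower genes, 415 (53.3%) lay on opposite sides, with 60 µM alone outside in 115 (14.8%) and 90 µM alone outside in 117 (15.0%), close to the shares of all genes. At 100 CPM and over, 116 of the 177 higher genes lay on opposite sides, 31 had 60 µM alone outside and 13 had 90 µM alone outside. Of the 59 lower genes at this level, 30 lay on opposite sides, with 60 µM alone outside in 12 and 90 µM alone in 5. The shares over all genes of this level were not computed, so these numbers have no background beside them. Both libraries lay outside the range of the other pair, on the same or opposite sides, in 64.3% of higher, 67.0% of lower and 57.8% of all kept genes. A larger share on opposite sides partly follows from calling genes that lie far apart.

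Genes called here were called more often than other genes between the water and 30 µM libraries, a pair that shares no library with this one. Of the 658 higher genes, 91 (13.8%) were more than 2-fold higher at 30 µM than with water and 20 (3.04%) more than 2-fold lower, where all genes kept gave 1.53% and 1.73%. The shares of all genes were not matched for expression level. Between 30 µM and water, 8.63% of genes were called at 1 to 3 CPM and 1.57% at 30 to 100 CPM. The 91 genes were 31.5% of those higher at 30 µM, where 3.49% of all kept genes were higher at 90 µM. Of the 779 lower genes, 119 (15.3%) were lower at 30 µM and 20 (2.57%) higher. The 119 were 36.4% of those lower at 30 µM, where 4.13% of all kept genes were lower at 90 µM. Without regard to the size of the difference at 30 µM, 443 of the 658 higher genes were above water at 30 µM (67.3%) and 245 of the 779 lower genes (31.5%), against 49.7% of all genes.

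Protein-coding genes made up 18219 of the kept genes, of which 634 were higher (3.48%) and 731 lower (4.01%). Long non-coding RNA (lncRNA) genes, transcripts that are not translated, numbered 627, with 24 higher (3.83%) and 47 lower (7.50%). lncRNA genes were weakly expressed, with a median of 2.71 CPM against 23.9 CPM, so their share was set beside protein-coding genes of the same level. At 1 to 3 CPM, 7.46% of 268 lncRNA genes and 7.70% of 1624 protein-coding genes were lower. At 3 to 10 CPM the shares were 5.56% of 198 and 6.47% of 3263. Under 1 CPM they were 21.0% of 62 and 17.0% of 305. The larger share of lower lncRNA genes was thus not present at 1 to 10 CPM.

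Ribosomal RNA (rRNA), the structural RNA of ribosomes, had 11 features kept, and none passed the 2-fold rule. Of these, 9 had fitted folds below 0, as did 9194 of 18219 protein-coding genes, and the class median log2 fold was -0.67. LOC116190074, the most abundant, had 21796 counts at 60 µM and 13102 at 90 µM, a ratio of 0.695 (0.680 to 0.711). LOC116190117 had 19741 and 10354 counts and a ratio of 0.607 (0.592 to 0.621), and LOC116190196 had 1401 and 596 counts and a ratio of 0.492 (0.446 to 0.542). Weakly expressed features went the other way. LOC116190195 had 37 and 54 counts, a ratio of 1.69 (1.09 to 2.64), and LOC116190111 had 31 and 31, a ratio of 1.16 (0.680 to 1.97). The class took 0.243% of the 60 µM library (exact interval 0.241% to 0.245%) and 0.146% of the 90 µM library (0.144% to 0.147%). rRNA copies are near-identical and can share reads, and the amount left in a library depends on how RNA was selected, which no label states. The part of either in this difference was not tested.

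Small nucleolar RNA (snoRNA) genes, which guide chemical modification of rRNA, numbered 12, and all 12 had fitted folds below 0 (median log2 fold -0.60). The class was weakly expressed, with a median of 1.36 CPM, and of all kept genes 40.0% at 1 to 3 CPM and 32.2% under 1 CPM had folds above 0. LOC116206503 was the 1 snoRNA gene called lower, 8.33% of the class against 4.13% of all genes. Of all kept genes, 17.8% were lower under 1 CPM, the level of LOC116206503, and 7.62% at 1 to 3 CPM. It had 39 counts at 60 µM and 7 at 90 µM, a ratio of 0.208 (0.0783 to 0.469). LOC116206507 had 232 and 101 counts and a ratio of 0.504 (0.395 to 0.639), and LOC116198344 had 254 and 157 counts and a ratio of 0.715 (0.582 to 0.876). Both small nuclear RNA (snRNA) genes, parts of the splicing machinery, went the other way without passing the rule. LOC116193360 had 63 and 83 counts, a ratio of 1.52 (1.09 to 2.15), and LOC116190300 had 45 and 62, a ratio of 1.59 (1.07 to 2.39).

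Genes called in 1 direction often lay next to each other in the order of the RefSeq gene table. Of the 641 higher genes placed on chromosomes, 97 (15.1%) had an adjacent gene that was also higher, whereas 4.76% of all kept genes had a higher neighbour. For the 745 lower genes the numbers were 108 (14.5%) and 5.30%. Runs of at least 3 adjacent genes numbered 9 for higher and 8 for lower genes, and the longest of each held 5. Reads shared between near-identical or overlapping neighbours were not separated here, and their part in these runs was not tested.

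The longest higher run began with LOC116211188 (1169 counts at 60 µM and 4333 at 90 µM, ratio 4.29) and LOC116211172 (689 and 4034, ratio 6.77). It went on with LOC116207107, LOC116189518 and LOC116197130, with ratios of 6.11, 5.26 and 6.51. All 5 genes had their lowest count at 60 µM. LOC116193463, described above, lay between LOC116198171 (6144 and 20027 counts, ratio 3.77) and LOC116193503 (444 and 1343, ratio 3.50), and all 3 were also abundant at 30 µM. LOC116194624 lay between LOC116195539 (ratio 3.23) and LOC116194627 (ratio 4.38). In a run of weakly expressed genes, LOC116202823, LOC116202899 and LOC116202844 had 20, 5 and 36 counts at 60 µM and 234, 90 and 428 at 90 µM. Their counts with water were 8, 6 and 9, so the 90 µM library alone was high.

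The longest lower run held LOC116211182, LOC116210710, LOC116210711, LOC116210713 and LOC116210923, with ratios between 0.0951 and 0.159. LOC116210923 had 1991 counts at 60 µM and 241 at 90 µM, and LOC116210710 had 596 and 49. LOC116215005 was part of a run of 4 with LOC116215006, LOC116215003 and LOC116214115, of which LOC116215003 alone kept reads at 90 µM (143 counts at 60 µM and 7 at 90 µM). In LOC116197025, LOC116195091 and LOC116195029 the 60 µM library alone was high, with 429, 330 and 918 counts against 18, 59 and 113 at 90 µM and 2, 22 and 22 with water. The genes of these runs were named after their values were seen.

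**Figure D5:**
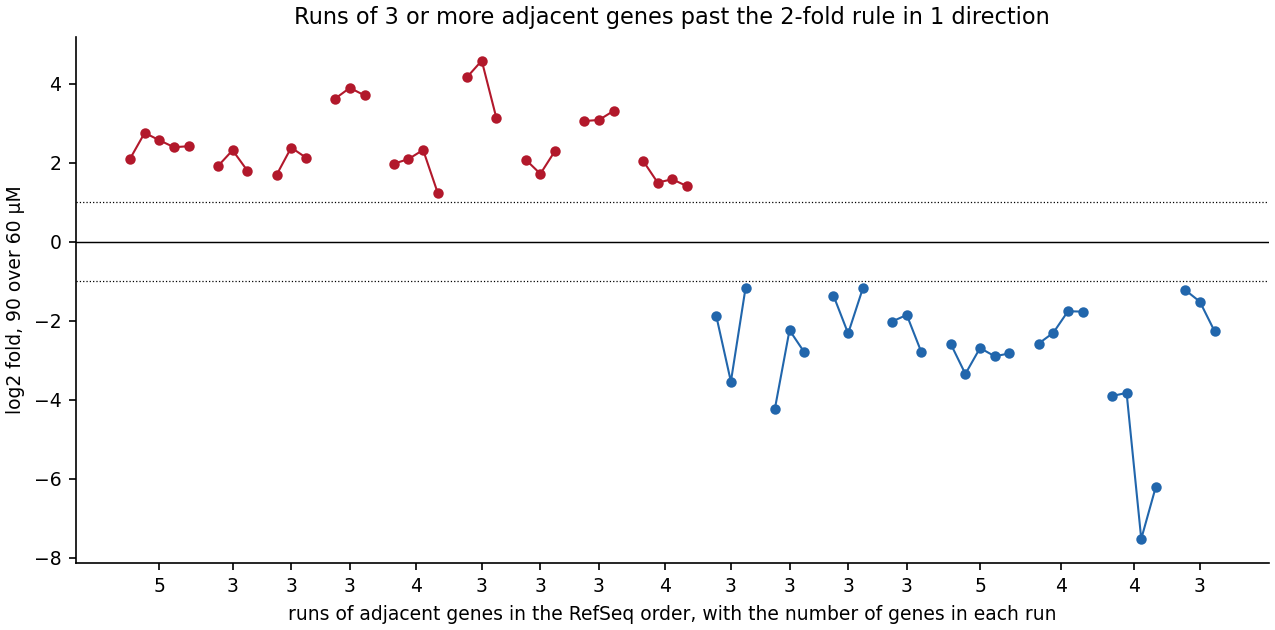
Log2 fold of 90 over 60 µM (vertical axis, prior count 2) of the genes in each run of 3 or more adjacent genes past the 2-fold rule, joined by lines, with the number of genes in each run on the horizontal axis. The 9 higher runs are red, the 8 lower runs blue, and dotted lines mark 2-fold. Folds differ most within the lower run that holds LOC116215005.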

How the data were processed

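The authors deposited unnormalized whole-number read counts for each gene. The submitters' processing notes name FastQC, the aligner HISAT2 and the counting program featureCounts. Neither versions nor a genome build are stated, nor how strand and reads with several matches were handled, so antisense and overlapping genes cannot be told apart. The table had 0 columns of other samples.

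Feature classes and gene order came from the RefSeq gene table of ASM765513v2, which matched 27509 identifiers by symbol and 37 by locus tag, and left 347 unmatched. No coordinates are given, since no build is named for the counts. It holds no product names or sequences, so 0 of the planned gene and motif lists could be filled and no sequence is shown.

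Genes with 1 CPM in either library were kept. TMM factors came from edgeR 4.0.16, median-of-ratios factors from DESeq2 1.42.0, and exact 95% Clopper-Pearson conditional binomial intervals of the ratio from SciPy 1.17.1. Log2 folds used a prior count of 2. Against 0 reads, folds are lower bounds from a floor of 3 counts in that library (0.106 CPM at 60 µM and 0.113 CPM at 90 µM). Folds, calls and positions that involve the other libraries used TMM over all 4. Counts, CPM and shares of reads given for single libraries are unscaled unless called scaled. The code of the rule was run on simulated counts that held counting error alone, scaled by library totals, with 4-fold changes set in some well-counted genes. Such counts hold no spread between plants, so they do not show how many of the calls reflect dose. Named genes were, per coarse CPM level (under 10, 10 to 100, 100 to 1000, 1000 and over), the 3 with interval bounds furthest past 2-fold in each direction. The 5 most abundant, the 2 per direction with most reads against 0, and the 3 with the largest scaled CPM difference per direction were added. rRNA, snoRNA, snRNA and neighbouring genes were chosen after their values were seen. The members and lists were chosen with earlier results of these data known.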

Additional observations from a re-analysis of the deposited data

How the results depend on the processing

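The numbers of higher and lower genes depended most on the rule of size. They were 1595 and 1639 with a 1.5-fold bound, 125 and 189 with a 4-fold bound, and 1067 and 1424 when the point ratio alone had to pass 2-fold. Scaling by column totals gave 497 and 936, and a 99% interval 557 and 670. With 1 CPM required in both libraries, genes called at 1 to 10 CPM were 110 higher and 194 lower, and 13 lncRNA genes were lower, as that filter removes genes near absence in 1 library. The median log2 fold at 100 CPM and over was -0.0063 when scaled by column totals. The difference between that median and the one at 1 to 10 CPM stayed between 0.22 and 0.26 over 2 filters and 2 prior counts. It did so too with levels set from the 0 and 30 µM libraries. The 3 scalings could hardly change this difference, since scaling moves the ratios of all genes alike. None of the 28 named genes past the 2-fold rule lost its call or direction under the 3 scalings. Most of them were chosen for lying far past the bound, so this says little about the other called genes.

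No paired analysis was possible because each dose has 1 library, and for the same reason no library was left out. The alternative promoter window was not run, since no sequences were used here. Depth limits the genes under 10 CPM most, and nothing here measures the spread between plants.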
